A study of Ovis aries with 4 samples.

Results

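The genes described here are neuregulin 1 (NRG1), neuregulin 3 (NRG3) and their receptor, the tyrosine kinase ERBB4, 3 of the 26478 genes listed for the sheep libraries. They were chosen by symbol, and each symbol stood on 1 row of the gene lists, with the Ensembl identifiers ENSOARG00020007228, ENSOARG00020026281 and ENSOARG00020022203 in the order NRG1, NRG3, ERBB4. The tissue was frozen striatum, a deep forebrain region, from 4 sheep aged 5 years. It was made into droplet-based libraries of whole cells, released with the enzyme papain, and of isolated nuclei, with 2 libraries of each kind and 2 animals pooled in each library. Replicate 1 held sheep 1 and 2 and replicate 2 held sheep 3 and 4 by the sample titles, whereas the protocol gives animals 2 and 3 as the source of the second suspension of cells. No genotype or treatment separates the groups, and a pool of animals is the unit of replication.

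Neuregulins are growth factors with an EGF-like domain, made as membrane-bound precursors and released or displayed at the cell surface. ERBB4 binds NRG1 and NRG3 directly and, on binding, pairs with itself or with another ERBB receptor and starts kinase signalling. In the forebrain ERBB4 is best known from parvalbumin interneurons, where neuregulin from neighbouring neurons acts on inhibitory synapses, and neuregulin signalling is also studied in oligodendrocytes.

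The libraries differed in depth and content. They held 1115058 and 19241918 unique molecular identifiers (UMIs, each marking a captured RNA molecule) from whole cells and 70473292 and 51102420 from nuclei. Mitochondrial genes took 88.7% and 86.9% of the whole cell UMIs and 0.779% and 0.776% of the nuclear UMIs. Between 2 and 87 cell barcodes were shared by any pair of libraries. After filters on genes detected, mitochondrial UMIs and doublet scores, 8004 and 7717 nuclei were clustered, with the 3 genes and their pathway list kept out of the clustering. Of 24 clusters, 16 were named from marker genes. They made 6 classes with enough nuclei in both libraries: oligodendrocyte-like (3674 and 3752 nuclei), oligodendrocyte precursor-like (576 and 682), astrocyte-like (479 and 453), microglia-like (744 and 754), medium spiny neuron-like (1144 and 1134) and interneuron-like (282 and 295). The detected markers (7, 8, 7, 9, 10 and 15, in the same order) were each higher in their class than in all other nuclei pooled, which follows in large part from the naming by these markers.

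The first comparison asked how the 3 genes were captured from nuclei and from whole cells. They were among the transcripts that whole cell libraries hardly held. NRG1 had 0 and 26 UMIs in the whole cell libraries and 361680 and 231891 in the nuclei libraries. NRG3 had 1 and 16 UMIs in whole cells against 126654 and 94340 in nuclei. ERBB4 had 7 and 54 UMIs in whole cells against 145832 and 111593 in nuclei. Each nuclei library lay far above each whole cell library for every one of the 3 genes. In counts per 1000000 UMIs (CPM), NRG1 stood at 5132 and 4538 in nuclei and at 1.35 in whole cells replicate 2. Its count of 0 in whole cells replicate 1 allows up to 3.31 CPM (upper limit of the exact Poisson 95% interval). NRG3 stood at 1797 and 1846 CPM in nuclei against 0.897 and 0.832 in whole cells, and ERBB4 at 2069 and 2184 against 6.28 and 2.81. With mitochondrial UMIs left out of the totals, whole cells replicate 1 held 55.6 CPM for ERBB4 (exact Poisson 95% interval 22.3 to 114.5), 7.94 for NRG3 and 0 for NRG1, and replicate 2 held 21.5, 6.37 and 10.3.

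In edgeR's quasi-likelihood test of nuclei against whole cells, the 3 genes were all higher in nuclei. The comparison called 52.2% of the 15781 genes tested, 29.8% as higher and 22.4% as lower in nuclei. The log2 fold change was 8.96 for NRG1 (SE 0.77, adjusted p = 8.13e-11 by edgeR), 8.00 for NRG3 (SE 0.72, adjusted p = 2.34e-10) and 6.16 for ERBB4 (SE 0.65, adjusted p = 3.50e-09), against a median of 0.61 over all genes. These p-values measure only the spread between these libraries. Scaling by library size alone moved the median of all genes to 3.66 and the members to 11.97, 11.08 and 9.29, and it changed the calls from 4695 higher and 3536 lower to 12537 higher and 498 lower. When libraries were blocked by the animals in their titles, which the protocol contradicts for the second cell suspension, the called genes numbered 5471. Without whole cells replicate 2 NRG1 had no UMI left in whole cells, so no fold can be given. In summed libraries, fewer cells of a type and less RNA per cell cannot be told apart. The counting program also differed with the kind of library, Cell Ranger 6.0.1 for whole cells and 7.0.0 for nuclei by the file headers, and the 2 differences cannot be told apart.

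The remaining comparisons used the nuclei. NRG1, the ligand with the broadest known roles in nerve and brain, was highest in medium spiny neurons, the striatal output neurons. The spiny neuron-like nuclei held 7552 and 7403 NRG1 CPM (7477 ± 105.7, SD, n = 2). Interneuron-like nuclei followed with 2298 and 1978 CPM. Glial classes held little: astrocyte-like nuclei 228 and 144, precursors 112 and 115.6, microglia-like nuclei 95.9 and 59.7 and oligodendrocyte-like nuclei 77.0 and 56.5. The libraries did not overlap between neighbours in this order except for microglia and oligodendrocytes. Spiny neuron-like nuclei were 14.3% and 14.7% of the clustered nuclei, held 63.2% and 55.4% of all UMIs, and held 89.8% and 86.0% of the NRG1 UMIs.

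**Figure D1:**
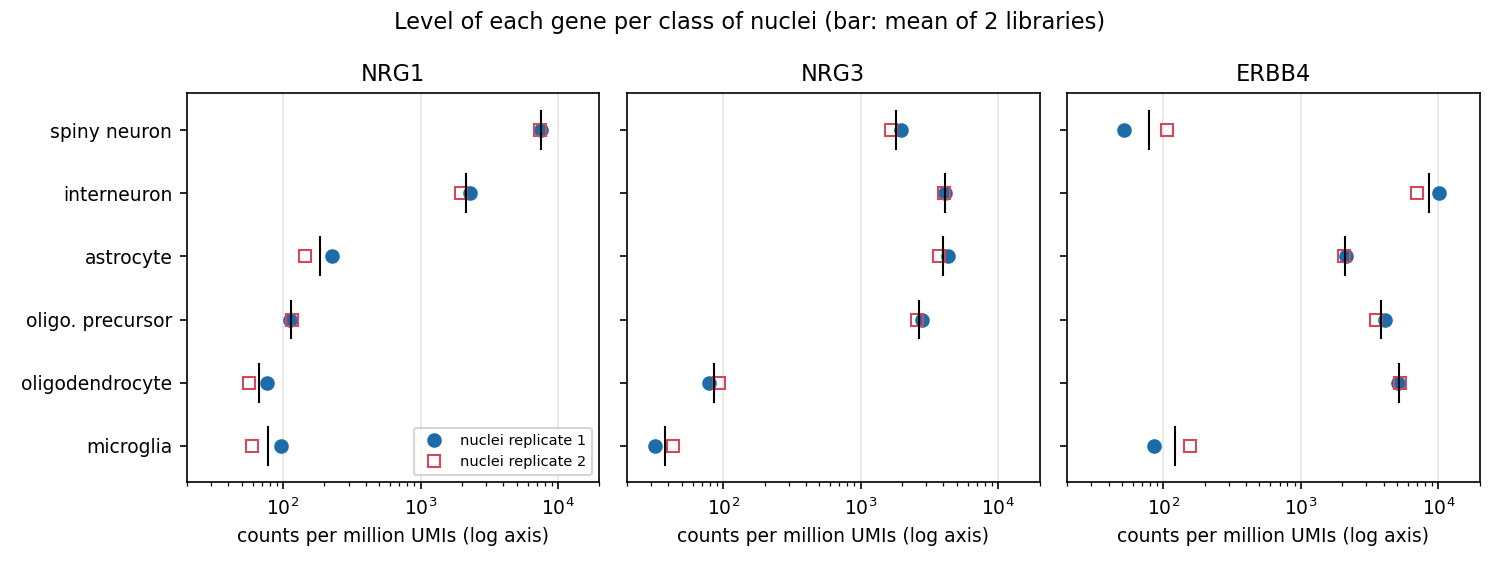
CPM (counts per 1000000 UMIs, log axis) of NRG1, NRG3 and ERBB4 in 6 classes of nuclei; each symbol is 1 nuclei library and the bar is the mean of 2. NRG1 is highest in spiny neuron-like nuclei (7552 and 7403), where ERBB4 is lowest (51.4 and 107.2), and NRG3 is low in oligodendrocyte-like and microglia-like nuclei alone.

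Within the spiny class NRG1 was even. The 3 spiny clusters ranged from 6723 to 7687 CPM, a ratio of 1.14. In the cluster led by HTR4 and DRD2 all 624 nuclei of replicate 1 and all 531 of replicate 2 held NRG1, with a median of 228 and 120 UMIs per nucleus. Interneurons were less even. The cluster with CHAT and SLC5A7, genes of acetylcholine synthesis and choline uptake, held 5948 and 3819 NRG1 CPM. The cluster with KIT and PTHLH held 1235 and 1474, and the cluster with SST, NPY and NOS1 held 371 and 1079. The interneuron level is thus a mean over unequal clusters: the CHAT cluster stood 16.0-fold above the SST cluster in replicate 1 and 3.54-fold in replicate 2, where 1 of 30 nuclei held 40.2% of the NRG1 UMIs of the SST cluster. An unnamed neuronal cluster led by FOXP2, with ALK and OTOF among its leading genes, had 72 and 85 nuclei and the highest NRG1 level of the clusters with at least 20 nuclei in both libraries, at 9860 and 8326 CPM.

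NRG3, a neuregulin expressed mainly in the nervous system, had a broader distribution that took in glia. Interneuron-like nuclei held 4112 and 4047 NRG3 CPM and astrocyte-like nuclei 4284 and 3696, and the libraries of these 2 classes overlapped. Oligodendrocyte precursors held 2770 and 2572 CPM. Spiny neuron-like nuclei came next with 1975 and 1648. Oligodendrocyte-like nuclei held 78.3 and 93.2 and microglia-like nuclei 31.7 and 43.2. Below the top pair each class lay apart from the next in both libraries. The highest cluster was a small one of excitatory neuron-like nuclei, with 10 and 49 nuclei and 9650 and 9703 CPM. These were 0.125% and 0.635% of the nuclei, held 0.719% and 4.35% of all UMIs, and held 3.78% and 22.0% of all NRG3 UMIs.

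Spiny neurons were not uniform for NRG3. The clusters led by FSHR and by RELN, which carried EBF1 and TAC1, markers of the spiny neurons with dopamine receptor D1, held 3319 and 2577 and 3703 and 2963 NRG3 CPM. The cluster led by HTR4, which carried DRD2 and PENK, markers of those with dopamine receptor D2, held 574 and 442. EBF1 stood at 184 and 185 CPM in the former 2 clusters, pooled over libraries, against 5.31 in the latter. DRD2 stood at 2.16 and 0.999 against 39.6. NRG3 was therefore higher in each cluster with D1 markers than in the cluster with D2 markers, in both libraries.

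The same difference was seen with the spiny neuron-like nuclei grouped by marker UMIs rather than by cluster, a grouping chosen after the values were seen. Nuclei with EBF1 and without any UMI of 5 D2 markers (406 and 472 nuclei) held 3570 and 2749 NRG3 CPM. Nuclei with a D2 marker and without EBF1 (538 and 423) held 494 and 303. The ratio was 7.23 and 9.07 in the 2 libraries, at median depths of 33894 and 18128 UMIs in the former and 32594 and 19448 in the latter. For NRG1 the same ratio was 0.932 and 0.977. Nuclei with both kinds of marker (59 and 50) held 2985 and 1766 NRG3 CPM and those with neither (141 and 189) held 2467 and 2351. This difference between the 2 kinds of spiny neuron was not a designed comparison and has no test.

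**Figure D2:**
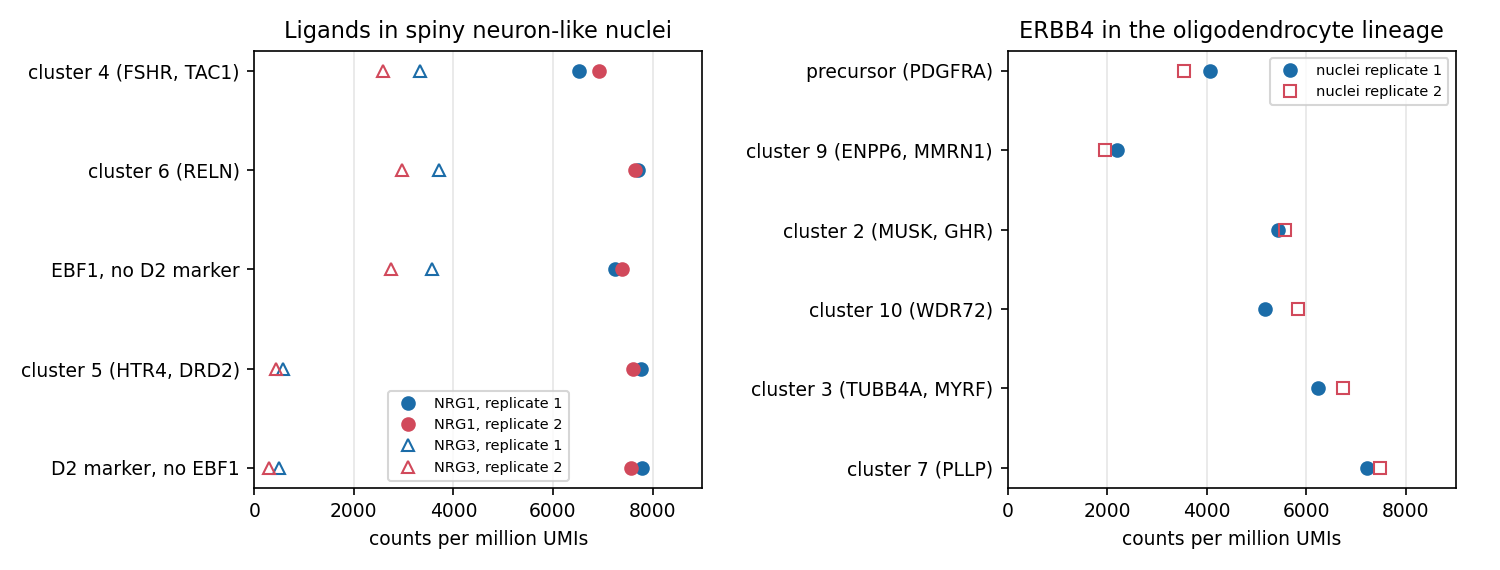
Left, NRG1 (filled circles) and NRG3 (open triangles) in CPM in spiny neuron-like clusters and in spiny nuclei grouped by marker UMIs; right, ERBB4 in the oligodendrocyte lineage; colours separate the 2 nuclei libraries. NRG3 lies between 2577 and 3703 in clusters 4 and 6 and in nuclei with EBF1 and no D2 marker, and between 303 and 574 in cluster 5 and in nuclei with a D2 marker and no EBF1, while NRG1 stays between 6519 and 7779; ERBB4 is lowest in the cluster with ENPP6.

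ERBB4, the receptor, was found in interneurons and in the macroglia and was low in spiny neurons and microglia. Interneuron-like nuclei held 10156 and 6983 ERBB4 CPM (8570 ± 2244, SD, n = 2). Oligodendrocyte-like nuclei held 5110 and 5287, precursors 4072 and 3541, and astrocyte-like nuclei 2117 and 2057. Microglia-like nuclei held 86.1 and 155.6 CPM, and spiny neuron-like nuclei 51.4 and 107.2. These last 2 classes overlapped, and every other class lay apart from its neighbour. The interneuron level was 1.99-fold and 1.32-fold that of oligodendrocytes in the 2 libraries. It was 197-fold and 65.1-fold that of spiny neurons. Oligodendrocyte-like nuclei, 45.9% and 48.6% of the nuclei, held 14.7% and 15.7% of all UMIs and 36.7% and 38.1% of the ERBB4 UMIs. Interneuron-like nuclei, 3.52% and 3.82% of the nuclei, held 4.54% and 6.67% of all UMIs and 22.5% and 21.4% of the ERBB4 UMIs.

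The ERBB4 UMIs of interneurons came mainly from 1 cluster, which held 28145 of 29632 in replicate 1 and 19532 of 21385 in replicate 2. That cluster, led by KIT and TLL2, with PTHLH, NXPH1 and PVALB among its raised markers, held 16178 and 11214 ERBB4 CPM. The cluster with SST, NPY and NOS1 (22 and 30 nuclei) held 424 and 481, of which 1 nucleus in each library gave 31.7% and 42.1%. The cluster with CHAT held 1761 and 2097, but its nuclei were unequal: 133 of 168 and 115 of 161 had no ERBB4 UMI, and the 5 nuclei with most held 79.9% and 63.7% of the cluster's ERBB4 UMIs. Without those 5 nuclei per library, chosen after the values were seen, the level was 439 and 1084. The clusters of the class thus spanned a 30.3-fold range for ERBB4.

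The unnamed FOXP2 cluster stood beside the KIT cluster as the other ERBB4-rich neuronal population, at 13330 and 12802 CPM. No nucleus of it lacked ERBB4, and the median nucleus held 361 and 208 UMIs. It raised 2 markers of the spiny neuron list, PDE10A and ADCY5, and 2 of the interneuron list, so the lists favoured neither class and it stayed unnamed. Counting it as spiny or as interneurons, alternatives added after the data were seen, moved the log2 difference between interneurons and spiny neurons in ERBB4 from 6.54 to 3.11 or to 6.82. Spiny cluster RELN differed between libraries, with 31.7 CPM in replicate 1 and 226 in replicate 2, where 5 of 139 nuclei held 61.6% of the UMIs.

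Within oligodendrocytes ERBB4 varied 3.54-fold over 5 clusters. The cluster led by PLLP held 7222 and 7477 CPM and that with TUBB4A and MYRF, the latter a transcription factor of myelin genes, held 6234 and 6735. The clusters with MUSK and with WDR72 held 5430 and 5562 and 5165 and 5824. The lowest was the cluster led by ENPP6, known from newly formed oligodendrocytes, and MMRN1, at 2189 and 1964, which also held the most NRG3 of the 5, at 121 and 169 CPM. Its ERBB4 level was below that of the precursors (4072 and 3541) in both libraries. The order of the neighbouring clusters with MUSK and WDR72 was not the same in both libraries.

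The test of interneurons against spiny neurons called 38.6% of 12958 genes, 20.0% as higher and 18.6% as lower in interneurons, and all 3 genes were among them. ERBB4 was higher in interneurons (log2 fold change 6.54, SE 0.36, adjusted p = 6.62e-09 by edgeR, with 7.30 and 5.82 in the 2 libraries). NRG3 was higher by 0.91 (SE 0.17, adjusted p = 0.000579), between classes of unequal clusters. The spiny clusters with D1 markers (3319 and 2577, 3703 and 2963 CPM) lay above the SST cluster (2047 and 2006) and below the KIT cluster (5481 and 4805). The CHAT cluster (2117 and 3834) lay below them in replicate 1 and above them in replicate 2. NRG1 was lower, at -2.08 (SE 0.17, adjusted p = 4.13e-07). With the CHAT cluster left out of the interneurons the 3 log2 fold changes were 6.84, 1.00 and -2.89. With the FOXP2 cluster counted as interneurons they were 6.82, 0.35 and -0.87, and NRG3 no longer passed the test (adjusted p = 0.102 by edgeR). Scaling by library size alone moved the median gene from 0.02 to 0.28 and the share of calls that were higher from 51.8% to 73.0%, without a change of call for the 3 genes.

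Oligodendrocyte precursors and oligodendrocytes differed in the ligand more than in the receptor. Of the genes tested, 48.5% were called, 25.2% as higher and 23.4% as lower in precursors. NRG3 was higher in precursors (log2 fold change 4.97, SE 0.20, adjusted p = 6.62e-11 by edgeR). ERBB4 did not pass the test, at -0.43 (SE 0.28, adjusted p = 0.231), with -0.30 and -0.58 in the 2 libraries. With no filter on low counts it passed at -0.54 (adjusted p = 0.000772). NRG1 was higher by 0.80 (SE 0.18, adjusted p = 0.00206), which lost its call without the library block (0.77, adjusted p = 0.0554). Its levels in both classes, 56.5 to 115.6 CPM, span those of microglia (59.7 and 95.9).

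Astrocytes differed from oligodendrocytes in all 3 genes, beside 48.8% of genes called (24.8% higher, 23.9% lower). NRG3 was higher in astrocytes by 5.28 (SE 0.20, adjusted p = 6.41e-11 by edgeR) and NRG1 by 1.21 (SE 0.18, adjusted p = 6.09e-05). ERBB4 was lower, at -1.58 (SE 0.29, adjusted p = 0.000372). Library size scaling changed the share of calls that were higher from 51.0% to 67.3% and the median gene from -0.06 to 0.20.

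Averaged over classes, neurons held more of both ligands than glia, in a comparison that called 65.2% of genes (33.7% higher, 31.5% lower). The log2 difference was 5.52 for NRG1 (SE 0.11, adjusted p = 3.43e-14 by edgeR) and 2.89 for NRG3 (SE 0.10, adjusted p = 6.29e-12). For NRG3 the average joined unlike glia. Astrocytes (4284 and 3696 CPM) and precursors (2770 and 2572) lay above spiny neurons (1975 and 1648). Oligodendrocytes (78.3 and 93.2) and microglia (31.7 and 43.2) lay far below. ERBB4 was lower in neurons by this average, at -0.65 (SE 0.18, adjusted p = 0.00594), although the highest and the lowest class were both neuronal. The value moved with the nuclei that entered it: it was 1.06 (adjusted p = 9.16e-06) with the FOXP2 cluster counted as spiny, -0.44 (adjusted p = 0.0349) with it counted as interneurons, and -0.19 (adjusted p = 0.232) with suspected doublets kept. Scaling by library size moved the median gene from -0.01 to -0.24 and the share of calls that were higher from 51.7% to 39.4%.

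Ligand was set against receptor as the log2 ratio of their UMIs within each class. Differences of this ratio between classes do not depend on gene length, but its 0 does not mark equal amounts. For NRG1 over ERBB4 the ratio ran from -6.30 ± 0.35 (SD, n = 2) in oligodendrocytes to 6.65 ± 0.77 in spiny neurons. Between them lay precursors at -5.06 ± 0.17, astrocytes at -3.52 ± 0.44 and interneurons at -1.98 ± 0.23. Spiny neurons alone among the 6 classes had a ratio above 0 in both libraries. Both ends rest on a gene with few UMIs per nucleus for the depth of its class (NRG1 in oligodendrocytes and ERBB4 in spiny neurons), to which free RNA can add, so they are ratios of the UMIs counted and no exact ratio of expression.

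NRG3 over ERBB4 gave another picture. Oligodendrocytes again were lowest at -5.93 ± 0.14 and spiny neurons highest at 4.60 ± 0.93, with the same limit for NRG3 in the former and ERBB4 in the latter. Precursors at -0.51 ± 0.07, interneurons at -1.05 ± 0.37 and astrocytes at 0.93 ± 0.12 lay closer together, and these 3 classes held both transcripts. By cluster, the FOXP2 neurons had the lowest neuronal NRG3 ratio at -4.25 ± 0.48, and their NRG1 ratio was -0.53 ± 0.13. The SST cluster, with that reliance on 1 nucleus for ERBB4, stood at 2.17 ± 0.15 for NRG3 and the KIT cluster at -1.39 ± 0.24. In microglia the counts of all 3 genes were small, 42 to 180 UMIs per library, and the ratios are given only in the plot of ligand over receptor.

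**Figure D3:**
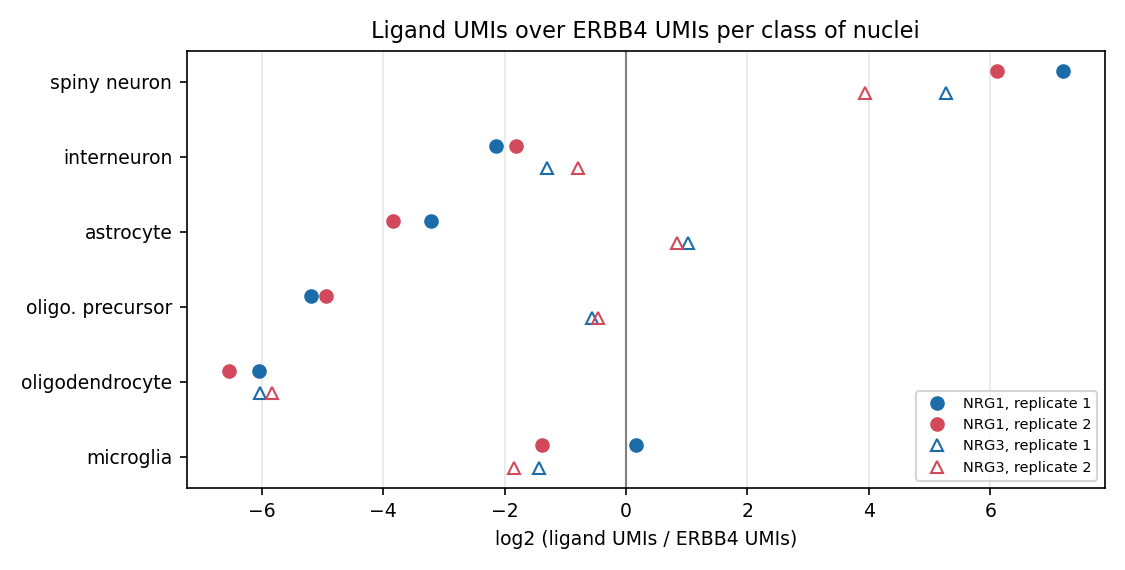
log2 ratio of NRG1 (circles) or NRG3 (triangles) UMIs to ERBB4 UMIs in each class, 1 symbol per nuclei library. Spiny neuron-like nuclei lie right of 0 for both ligands, oligodendrocyte-like nuclei near -6, and precursors, astrocytes and interneurons near 0 for NRG3.

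**Figure D4:**
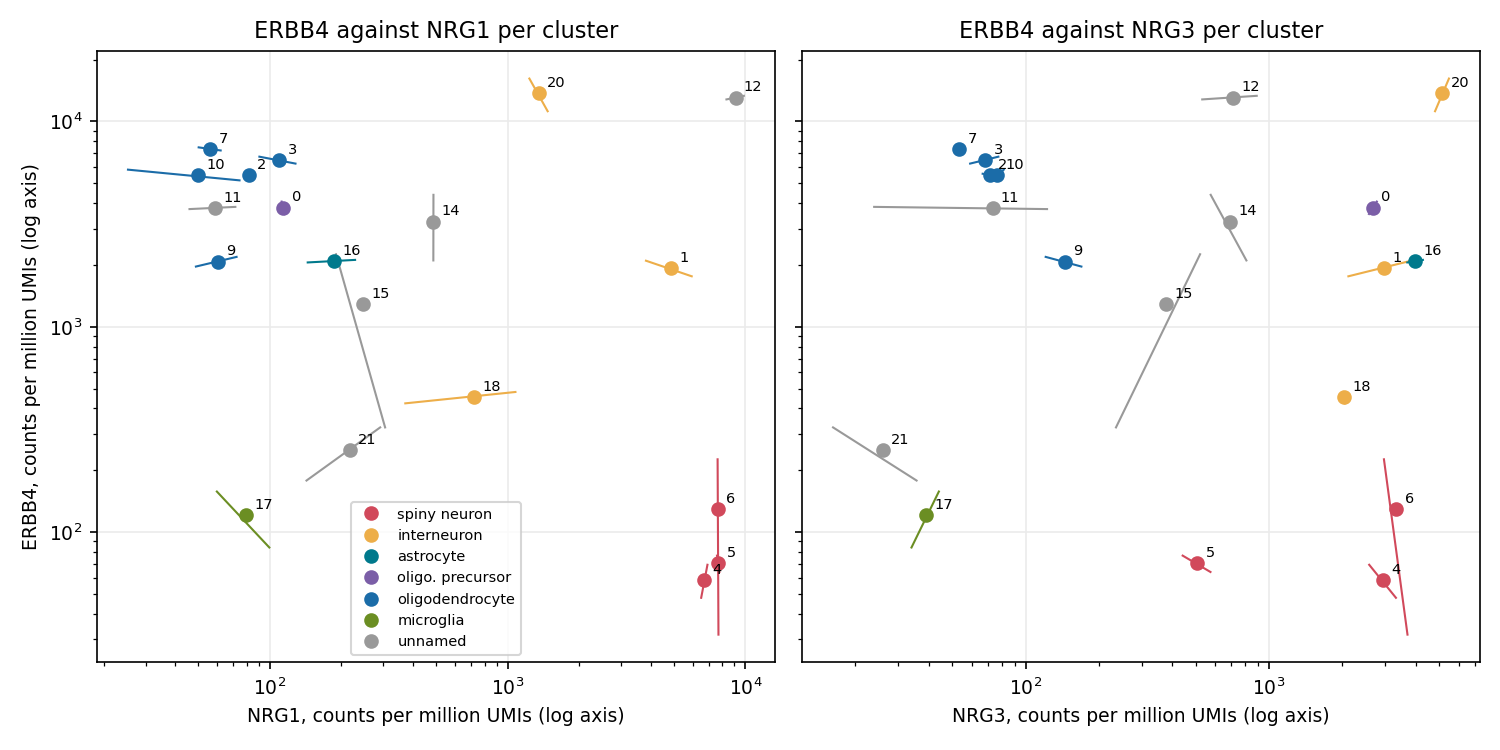
ERBB4 against NRG1 (left) and NRG3 (right) in CPM (log axes) for the clusters with at least 20 nuclei in both libraries; each point is the mean of the 2 libraries, the line joins them and the number is the cluster. Clusters 4, 5 and 6 are spiny, 1, 18 and 20 interneuron-like and 12 the FOXP2 cluster, which lies high for both NRG1 and ERBB4.

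Over clusters with at least 20 nuclei (22 in replicate 1 and 20 in replicate 2), the Pearson correlation of log2 levels between NRG1 and ERBB4 was -0.33 and -0.45, and between NRG3 and ERBB4 0.01 and -0.25. The 2 ligands had a correlation of 0.61 and 0.69. The clusters of a library share its preparation and depth, and these values are a description.

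Depth per nucleus differed greatly between classes, with a median of 32240 and 17893 UMIs in spiny neuron-like nuclei against 1658 and 1390 in microglia-like ones. Shares of nuclei with a UMI were therefore taken after thinning each nucleus to 500 UMIs, with exact binomial 95% intervals that cover counting error only. No nucleus was shallower than that. Microglia, in which none of the 3 genes is a known marker, are given for comparison: 5.11% and 2.79% with NRG1, 1.08% and 2.92% with NRG3 and 2.28% and 2.39% with ERBB4. The unthinned shares in microglia were 13.3% and 8.22%, 4.97% and 6.10%, and 7.26% and 6.63%.

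ERBB4 was found in few spiny neuron-like nuclei once depth was made equal. At 500 UMIs 2.27% (1.49 to 3.31%) and 2.91% (2.01 to 4.06%) of spiny neuron-like nuclei had an ERBB4 UMI, against 35.3% and 34.9% unthinned. These shares lie within the microglial intervals (1.34 to 3.63% and 1.42 to 3.75%). Before thinning, the deeper spiny neuron-like nuclei held 1.83 and 2.40 ERBB4 UMIs each, against 0.153 and 0.239 in microglia-like nuclei. Free RNA adds UMIs per droplet and is thinned along with the rest, so a match at equal depth does not show that ERBB4 in spiny neurons was background, and the part of free RNA in either value was not tested. The RELN cluster of replicate 2 stood higher, at 7.91% (4.02 to 13.7%, 36.0% unthinned), the library in which 5 nuclei held most of its ERBB4. NRG1 was found in 95.6% (94.3 to 96.7%) and 94.8% (93.3 to 96.0%) of them, and in all of them unthinned. NRG3 was found in 46.9% and 41.3% of all spiny neuron-like nuclei (76.2% and 70.2% unthinned). It was found in 79.6% and 65.5% of the FSHR cluster (98.8% and 97.0% unthinned) and in 18.1% (15.2 to 21.4%) and 12.8% (10.1 to 16.0%) of the cluster with D2 markers (57.1% and 39.4% unthinned). The share was higher in the FSHR cluster in both libraries, a difference that was not tested. In oligodendrocyte-like nuclei NRG1 was found in 3.86% and 3.07% (14.7% and 9.89% unthinned) and NRG3 in 2.89% and 4.13% (10.8% and 10.7%) at median depths of 2173 and 1575 UMIs.

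ERBB4 was spread over most nuclei of the oligodendrocyte lineage. It was found in 76.5% and 78.4% of oligodendrocyte-like nuclei (92.1% and 91.3% unthinned) and in 82.6% and 77.4% of precursors (99.8% and 98.1%). Astrocytes gave 46.3% and 50.1% (77.0% and 79.7% unthinned). The ENPP6 cluster gave 51.7% and 48.2% (73.3% and 72.4% unthinned), against 87.6% and 90.3% in the PLLP cluster (99.1% and 99.0%). Interneurons gave 40.1% and 43.7% (48.9% and 55.6% unthinned), and the KIT cluster alone 96.7% and 90.4% (98.9% and 96.2%). The share over all interneurons was below that of oligodendrocytes while the level was above it, and no order is read from it.

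Ligand and receptor were found in the same nucleus in several classes. NRG3 and ERBB4 were found together in 57.6% (53.5 to 61.7%) and 52.1% (48.2 to 55.9%) of precursors, where the product of the separate shares was 58.4% and 50.7% and the unthinned shares 99.1% and 95.5%. In astrocytes they were together in 39.7% and 38.0%, against products of 35.0% and 33.6% (73.7% and 73.5% unthinned). In the KIT cluster they were together in 87.0% and 81.7%, against 85.2% and 80.0% (98.9% and 94.2% unthinned). Over all interneurons the share was 32.6% and 33.6% against products of 20.6% and 26.4% (44.3% and 48.5% unthinned), in a class that mixes clusters with and without ERBB4. NRG1 and ERBB4 were together in 98.6% and 88.2% of the FOXP2 cluster (100.0% and 98.8% unthinned) and in 2.27% and 2.73% of spiny neuron-like nuclei (35.3% and 34.9%).

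**Figure D5:**
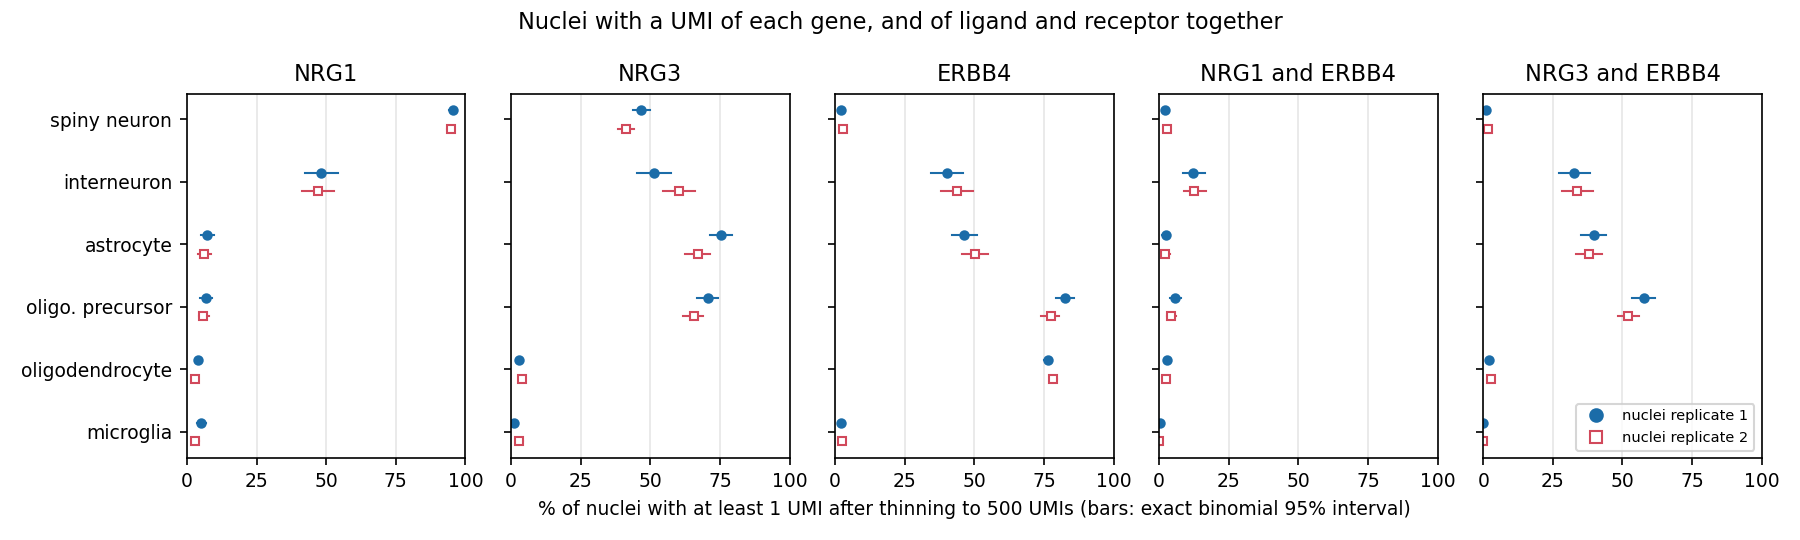
Percent of nuclei with at least 1 UMI of NRG1, NRG3, ERBB4, and of a ligand together with ERBB4, after thinning each nucleus to 500 UMIs; bars are exact binomial 95% intervals and each symbol is 1 nuclei library. NRG3 and ERBB4 are found together mainly in precursors (57.6% and 52.1%), astrocytes (39.7% and 38.0%) and interneurons (32.6% and 33.6%).

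The other genes of the pathway were taken as a list of 50 symbols, of which 47 were in the gene lists. Between interneurons and spiny neurons 12 of 43 tested genes were higher and 6 lower (41.9% called). Between precursors and oligodendrocytes 11 were higher and 12 lower (53.5%), between neurons and glia 8 and 22 (69.8%), and between astrocytes and oligodendrocytes 12 and 15 (62.8%). The shares over all genes, given above, were 38.6%, 48.5%, 65.2% and 48.8%. The balance of directions was not stable in the first and the last comparison: with no filter on low counts 8 were higher and 11 lower in interneurons, and by DESeq2 14 were higher and 11 lower in astrocytes. The median log2 difference of the list was -0.02, -0.11, -0.33 and 0.02, against 0.02, -0.05, -0.01 and -0.06 over all genes.

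Among the other ligands, NRG2 did not follow NRG1 or NRG3. It held 344 to 547 CPM in every class but microglia (15.9 and 19.0), and it did not pass the test between precursors and oligodendrocytes (0.01, adjusted p = 0.956 by edgeR). TGFA, a ligand of EGFR, was highest in precursors, at 152 and 169.5 CPM against 11.3 and 17.5 in oligodendrocytes (log2 fold change 3.52, adjusted p = 5.57e-10 by edgeR). BTC, a ligand of EGFR and ERBB4, held 33.8 and 27.1 in precursors, 37.7 and 28.1 in astrocytes and 0.212 and 0.139 in oligodendrocytes (2 UMIs and 1 UMI). NRG4 and HBEGF, also ERBB4 ligands, were highest in microglia, at 106.5 and 55.3 and at 17.4 and 29.4 CPM. AREG and EREG had at most 4 UMIs in any class and library.

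The other receptors divided the glia. ERBB3, which binds neuregulins but has a weak kinase, held 177 and 194 CPM in oligodendrocytes and 14.2 and 9.87 in precursors (log2 fold change -3.90, adjusted p = 1.51e-08 by edgeR). EGFR, the receptor of EGF and TGFA, went the other way, with 4.02 and 2.92 CPM in oligodendrocytes and 446 and 375 in precursors (6.87, adjusted p = 7.41e-11). ERBB2, the partner receptor that binds no ligand itself, was low: astrocytes held 31 and 22 UMIs, 14.6 and 14.4 CPM, and each of the other classes at most 12. In interneurons, the class highest in ERBB4, ERBB2 had 0 UMIs in both libraries, as it had in precursors. Oligodendrocytes held 1 and 0 ERBB2 UMIs, so the low count was not particular to interneurons.

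Further along the pathway, ADAM19, a protease that cleaves neuregulins, was higher in interneurons than in spiny neurons by 3.30 (adjusted p = 1.07e-06 by edgeR) and in precursors than in oligodendrocytes by 3.97 (adjusted p = 3.34e-07). ERBIN, a scaffold protein that binds ERBB2, and GAB1, an adaptor of receptor kinases, were lower in precursors than in oligodendrocytes, at -2.34 and -1.99. GAB1 and LRIG1, a negative regulator of ERBB receptors, were lower in neurons than in glia averaged over classes, at -4.04 and -1.95. LRIG1 was highest in astrocytes (1069 and 926 CPM). Microglia (9.06 and 6.05) lay below interneurons (20.9 and 28.7) and near spiny neurons (6.01 and 8.22) for LRIG1. YAP1, a transcriptional partner of the cleaved ERBB4 domain, was higher in astrocytes than in oligodendrocytes by 7.60. NEDD4 and DLG4, a ubiquitin ligase and a postsynaptic scaffold that bind ERBB4, were lower in interneurons than in spiny neurons, at -1.05 and -0.88.

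Between nuclei and whole cells 21 of 45 pathway genes were higher in nuclei and 6 lower (60.0% called), beside 29.8% higher and 22.4% lower of all genes (52.2% called). When libraries were blocked by the animals in their titles, 12 were higher and 5 lower, beside 3225 and 2246 of all 15781 genes. Scaled by library size alone, 40 were higher and 0 lower, beside 12537 and 498 of all genes. NRG2 (4.31) and GAB1 (3.65) were among the higher genes. PSENEN, a gamma-secretase subunit, was lower at -3.59 and LRIG1 at -1.90 in the TMM-scaled fit, directions that scaling by library size alone did not keep as calls.

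The genes whose levels over clusters were most like each member were found among 11116 genes, by the lower of the Pearson correlations in the 2 nuclei libraries. For NRG1 they were EPHA6 (0.94), TRANK1 (0.90), GALNT17 (0.89), ADAMTS3 (0.89) and ELAPOR1 (0.89). For NRG3 they were ADGRB3 (0.86), CACNA1D (0.86), CTNNA2 (0.86), MDGA2 (0.86) and CADM2 (0.85). For ERBB4 the likest genes lay further off, with IL1RAPL2 (0.76), NRXN2 (0.75), SEMA6A (0.72), GARNL3 (0.71) and PRLR (0.70).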

How the data were processed

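Striatum was measured in 2 whole cell and 2 nuclei libraries. The authors deposited raw UMI counts per gene and barcode, made with Cell Ranger 6.0.1 (whole cells) and 7.0.0 (nuclei) per the file headers. The submitters' processing notes also name Cell Ranger 2.1.1 and STAR 2.7.2a. The genome build, the annotation release and the counting of introns are not given in the sources used here, so no coordinates are printed.

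Nuclei in which 200 genes or more were detected and mitochondrial UMIs made up 5% or less were clustered with scanpy 1.11.5 (2000 variable genes, scaling within each library, 30 components, 15 neighbours, Leiden resolution 1.0). Scrublet called 388 doublets in replicate 1 and 0 in replicate 2 and so did not work in the latter; the 8% of nuclei with the highest scores were removed from each library. A cluster was named when enough fixed markers were at least 2-fold above the mean of the other clusters, with thresholds set after the data were seen. Levels are counts per 1000000 UMIs (CPM) of a class or cluster. The class contrasts were fitted on counts summed per class and library, with the library as a block, and the kinds of library on counts summed over all deposited barcodes without a block, with edgeR 4.0.16 (R 4.3.3; quasi-likelihood F test, TMM, filterByExpr, Benjamini-Hochberg over all genes tested, threshold 0.05). DESeq2 1.42.0 was an alternative, and the fits were tested on simulated data. Replicate numbers pair libraries because the titles name the same animals; over 1765 genes the deviations of paired libraries had a correlation of -0.06. Named pathway genes are at most 3 per direction and contrast, by size among those called with an average log2 CPM of at least 3, together with the ligands and receptors; some that met the rule are not reported here. The members and lists were chosen with earlier results of these data known.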

Additional observations from a re-analysis of the deposited data

How the results depend on the processing

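Of 186 refits with a test of the 3 genes in the 5 comparisons, 181 kept direction and call. The 24 class contrasts in a single library have no test, and all 24 kept the direction. The exceptions concern differences below 1 on the log2 scale. NRG3 in interneurons against spiny neurons was 0.35 and missed the test with the FOXP2 cluster counted as interneurons. ERBB4 in neurons against glia was -0.19 with doublets kept and 1.06 with the FOXP2 cluster counted as spiny, and between -0.72 and -0.63 in single libraries. ERBB4 in precursors against oligodendrocytes was -0.54 and passed the test with no filter on low counts. NRG1 in the same comparison was 0.77 and missed it with no replicate block. The cause of these shifts was not tested. The number of genes called between nuclei and whole cells was 8231 in the fit reported, 13035 with library size alone, 5471 with the replicate block (pairing by animals) and between 4864 and 10007 with 1 library left out, lowest without whole cells replicate 2 and 5438 without nuclei replicate 2. The block changed no other call for the 3 genes. Of the pathway list, 18 genes were called between interneurons and spiny neurons (6 higher and 5 lower at Leiden resolution 0.5, 8 and 9 with doublets kept, 7 and 7 with no centring by library, 7 and 6 with the FOXP2 cluster as interneurons). Between nuclei and whole cells the list gave 8 higher and 5 lower without nuclei replicate 1 and 11 higher and 5 lower without nuclei replicate 2. A class contrast in 1 library has no residual degrees of freedom, so counts of calls could not be fitted there.

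Of 90 class levels under other clusterings, 2 moved over 1.5-fold: NRG1 in interneurons fell from 2138 to 1407 CPM with the members kept in the clustering, and ERBB4 in spiny neurons rose from 79.3 to 133.7 with doublets kept. The interneuron-like class of 282 and 295 nuclei itself shrank to 128 and 147 with the members kept in the clustering. With doublets kept it had 132 and 150, so levels and refits in these settings did not cover the same nuclei. The split of spiny clusters by NRG3 needs clusters that separate D1 from D2 markers: at Leiden resolution 0.5 they joined in 1 cluster at 1812 CPM. ERBB4 in the ENPP6 cluster ranged from 1279 to 2171 over the other clusterings, in the KIT cluster it was 9020 at Leiden resolution 0.5, and in the CHAT cluster 830.0 with doublets kept. At 1000 UMIs, where shallower nuclei also drop out (595 of 3752 oligodendrocyte-like nuclei of replicate 2, for example), all 36 shares of nuclei with a UMI were higher, by at most 22.7 percentage points.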

Other observations

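Several clusters outside the 6 classes also held the genes. The unnamed cluster led by SLC17A6, a vesicular glutamate transporter, came almost wholly from nuclei replicate 1 (167 nuclei against 1) and held 6181 NRG1 CPM there, with 138 for ERBB4. The unnamed cluster led by NDST4 and PDZRN3, with SOX4 among its leading genes, held 4391 and 2104 ERBB4 CPM in 479 and 253 nuclei, with NRG1 at 488 and 487. An unnamed cluster led by DTHD1 and TOP2A, the latter a gene of dividing cells, differed between libraries for ERBB4, at 323 in replicate 1 and 2255 in replicate 2, and 5 nuclei held 83.2% and 57.6% of its ERBB4 UMIs. The vascular cluster with FLT1 and ERG held 20 and 5 ERBB4 UMIs in all and 1 NRG3 UMI in each library.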
